A study of Mus musculus with 20 samples.

Results

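Lipopolysaccharide (LPS) was compared with saline in the hippocampus of mice labelled as Fkbp5 knockout, on day 7 after the injection. The comparison takes 10 of the 20 RNA sequencing libraries of the study. The 5 knockout LPS libraries came from male mice aged 12 weeks, of strain label C57BL/6J and genotype label Fkbp5-KO, given 3 mg/kg LPS intraperitoneally. The 5 knockout saline libraries came from mice of the same sex, age, strain label and genotype given saline. The other 10 libraries, 5 LPS and 5 saline from wild-type mice treated in the same way, entered the same fit and served to test whether the LPS difference depended on genotype. The labels do not describe the knockout allele, name no littermate controls and leave unsaid if replicates are different animals. Accordingly, the p-values measure the spread between these libraries, which may be technical.

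LPS is a component of the outer membrane of Gram-negative bacteria. It is bound by CD14 and sensed by the TLR4 and MD-2 complex, which signals through MyD88 and TRIF to NF-kB and interferon regulatory factors. In the brain the main cells carrying these receptors are microglia and macrophages, while astrocytes and endothelial cells respond to the cytokines they release. FKBP5 works with the chaperone HSP90 and holds the glucocorticoid receptor in a state of low hormone affinity, and it has also been linked to NF-kB signalling.

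Total counts per library ran from 17503531 to 27230202 in knockout LPS and from 16746944 to 25840538 in knockout saline. Levels are given as CPM, counts scaled to a common library size with TMM factors, and a count of 0 over the 5 knockout saline libraries allows up to 0.0284 CPM, for counting error only. The libraries formed a pair of sets by replicate number, in both groups alike. Replicates 1 and 2 of the knockout groups had 23650 to 24903 genes with a count and 4.66% to 5.60% mitochondrial counts, and replicates 3 to 5 had 21304 to 22247 genes and 8.41% to 9.71%. The set was a term of the model, and fold changes within each set are given beside the leading results. Markers of hippocampal neurons were abundant in every knockout library, with Slc17a7, the vesicular glutamate transporter of excitatory neurons, at 1563 to 3081 CPM in knockout LPS and 1351 to 2939 CPM in knockout saline. Prox1, the transcription factor of dentate granule cells, stood at 93.9 to 172 CPM in knockout LPS and 123 to 165 CPM in knockout saline. Replicate 1 of knockout LPS stood apart from the other knockout libraries of its set in brain region markers and over all genes. Its mean log2 level of 12 thalamus markers was 0.57 above the knockout saline libraries of its set, against -0.21 to 0.14 in the other 9 knockout libraries. On the first principal component of log2 CPM over all 20 libraries (52.9% of the variance) it was at -73.6. Replicate 2 of knockout LPS was at -16.8, and replicates 1 and 2 of knockout saline were at -25.5 and -32.1. Replicate 1 of wild-type saline and LPS was at -80.1 and -71.1. The cause of this difference was not tested.

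Fkbp5, the targeted gene (chr17:28399094-28517527 in mm10), was at 25.1 to 36.0 CPM in the 10 knockout libraries and 56.7 to 73.4 CPM in the 10 wild-type libraries, without overlap. Counts per gene do not show which part of the transcript remained. Within the knockout it stood at 35.1, 28.6, 31.8, 25.1 and 26.6 CPM after LPS and at 35.0, 26.8, 27.9, 27.6 and 36.0 CPM after saline, in the order of the replicates. The groups overlapped, and the log2 fold change was -0.06 ± 0.10 (SE; edgeR adjusted p = 0.912).

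Of 16419 genes tested, 7 were higher in knockout LPS than in knockout saline at an adjusted p under 0.05 in edgeR (0.0426%), and 0 were lower, as with DESeq2 and limma-voom. The 7 genes were Saa3, Lag3, Csf3r, Tlr2, Unc93b1, Neurl3 and H2-D1. They encode an acute-phase protein, an immune checkpoint receptor, a growth factor receptor of myeloid cells, a Toll-like receptor, the chaperone of the endosomal Toll-like receptors, a ubiquitin ligase and an MHC class I heavy chain. For each of them the lowest of the 5 LPS libraries exceeded the highest of the 5 saline libraries, a separation that 47 of the genes tested showed in that direction (0.286%) and 17 in the other (0.104%). At an unadjusted p under 0.05, 483 genes were higher (2.94%) and 283 lower (1.72%). Together these were 766 genes, fewer than the share of 0.05 that falls under that p on average where no gene differs. The median log2 fold change of all genes tested was 0.01, with 52.5% of genes above 0. Lag3 and Saa3 were called in all 20 fits that left out 1 library, H2-D1 in 4 and Neurl3 in 7, and 2 genes were called without replicate 1, 3 or 4 of knockout saline. Without the term for the library set 1 gene, Lag3, was called. DESeq2's Wald test called these 7 and 12 more, among them B2m, H2-K1, H2-Q6, H2-Q7, Ctss, C1qa, Cd52, Lgals3bp and Cd14, and the counts of calls by list below are those of edgeR. In bulk tissue more cells of a type and more RNA per cell cannot be told apart.

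Promoter sequences of 5 of the 7 genes were found in the RefSeq table of GRCm38.p6 (250 bases before to 50 bases after the gene's start, on the gene's strand). They are shown because these genes were higher together. The start is RefSeq's, and for all 5 it lies inside the GENCODE gene bounds given with the results. The windows of Neurl3 and H2-D1 lie wholly within those bounds. The promoter of Saa3 lies at chr7:46715627-46715926 on the minus strand, Tlr2 at chr3:83841559-83841858 on the minus strand, Neurl3 at chr1:36273376-36273675 on the minus strand, Csf3r at chr4:126024409-126024708 on the plus strand and H2-D1 at chr17:35262844-35263143 on the plus strand. Capitals mark matches to the core of the interferon-stimulated response element (GAAA, any 2 bases, GAAA) in Saa3 and to the NF-kB site (GGG, any 5 bases, CC) in the others, with overlapping matches joined.
Saa3: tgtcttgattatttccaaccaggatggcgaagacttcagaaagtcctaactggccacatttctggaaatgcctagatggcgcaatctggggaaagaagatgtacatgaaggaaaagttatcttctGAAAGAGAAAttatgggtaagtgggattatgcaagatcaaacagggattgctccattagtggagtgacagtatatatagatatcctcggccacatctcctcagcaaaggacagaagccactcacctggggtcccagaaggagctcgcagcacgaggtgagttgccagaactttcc
Tlr2: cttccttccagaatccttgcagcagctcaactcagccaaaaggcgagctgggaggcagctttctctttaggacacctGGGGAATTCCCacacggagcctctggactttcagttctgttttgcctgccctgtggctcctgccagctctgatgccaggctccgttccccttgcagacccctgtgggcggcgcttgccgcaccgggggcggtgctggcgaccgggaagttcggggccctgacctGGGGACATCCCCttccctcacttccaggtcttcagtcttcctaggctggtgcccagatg
Neurl3: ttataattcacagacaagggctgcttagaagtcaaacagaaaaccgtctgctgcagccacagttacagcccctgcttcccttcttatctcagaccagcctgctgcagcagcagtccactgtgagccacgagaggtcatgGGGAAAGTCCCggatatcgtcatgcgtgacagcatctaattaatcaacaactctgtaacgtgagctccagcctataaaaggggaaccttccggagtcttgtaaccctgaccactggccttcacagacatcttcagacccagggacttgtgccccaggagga
Csf3r: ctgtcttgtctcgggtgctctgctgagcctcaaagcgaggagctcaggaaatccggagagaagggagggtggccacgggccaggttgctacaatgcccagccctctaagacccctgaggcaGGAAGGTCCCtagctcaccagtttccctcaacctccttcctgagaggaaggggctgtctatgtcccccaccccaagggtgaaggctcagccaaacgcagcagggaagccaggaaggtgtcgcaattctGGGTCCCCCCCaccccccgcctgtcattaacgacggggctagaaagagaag
H2-D1: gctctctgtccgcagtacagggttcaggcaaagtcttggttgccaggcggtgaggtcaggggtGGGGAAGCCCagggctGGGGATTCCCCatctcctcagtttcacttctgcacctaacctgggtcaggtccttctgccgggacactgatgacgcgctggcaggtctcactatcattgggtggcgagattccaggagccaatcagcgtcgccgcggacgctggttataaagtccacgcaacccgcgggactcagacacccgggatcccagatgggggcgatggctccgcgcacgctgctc
On either strand, the NF-kB site occurred in 4 of the 5 promoters (all but that of Saa3) and in 66.3% of the 11972 promoters of tested genes, so its presence does not set them apart. The interferon element occurred in that of Saa3 and in 2.83% of all. The STAT site (TTC, any 3 bases, GAA) and the glucocorticoid response element (GNACA, any 3 bases, TGTNC, with N for any base) were in 0 of the 5, and in 6.61% and 0.342% of all. A match is a string of letters and was not tested for binding. Lag3 and Unc93b1 are named only.

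The acute-phase genes encode secreted proteins that rise in inflammation. Saa3 (chr7:46711998-46715700), a serum amyloid A made outside the liver by macrophages, fat and epithelia, had 92, 61, 16, 19 and 16 counts in the knockout LPS libraries (3.33, 2.09, 0.872, 1.07 and 1.00 CPM) and 0 counts in all 5 knockout saline libraries. Every LPS library held the transcript, with more in replicates 1 and 2 than in replicates 3 to 5. Against 3 counts over the saline group the level was at least 67.5-fold higher (edgeR adjusted p = 0.000988). Lcn2, the iron-binding lipocalin secreted by reactive astrocytes and neutrophils, had 0.543, 0.103, 0.763, 0.564 and 0.439 CPM after LPS and 0.109, 0.0426, 0.144, 0.128 and 0.332 CPM after saline. In 4 of 5 LPS libraries Lcn2 was above every saline library, and its log2 fold change of 1.65 ± 0.54 missed the threshold (edgeR adjusted p = 0.864). Of 16 acute-phase genes, 7 had enough counts to be tested, of which 1 was called and 5 were above 0, with a median log2 fold change of 0.32. That median was 0.12 without replicates 4 and 5 of knockout saline and 0.17 without replicate 1 of knockout LPS. The 2 next in order of p, Cp (ceruloplasmin, a copper-carrying ferroxidase) and Serpina3n (a protease inhibitor of reactive astrocytes), had -0.35 ± 0.20 and 0.16 ± 0.10.

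Among immune checkpoint genes, Lag3 alone was called. Lag3 (chr6:124904361-124911705), an inhibitory receptor of the CD4 family that binds MHC class II, stood at 8.66, 20.1, 16.1, 13.6 and 14.2 CPM in knockout LPS and at 5.47, 7.71, 6.06, 5.56 and 7.30 CPM in knockout saline. The lowest LPS library was replicate 1, and it was still above the highest saline library. The log2 fold change was 1.18 ± 0.17 (SE; edgeR adjusted p = 0.00439), 1.13 in replicates 1 and 2 and 1.21 in replicates 3 to 5. Of the 14 tested members of a list of 22 checkpoint receptors and ligands, 10 were above 0, with a median of 0.10. Pdcd1, the inhibitory receptor PD-1, was too low to be tested, with 4, 11, 6, 6 and 3 counts after LPS and 2, 2, 0, 0 and 0 counts after saline. With a lower filter, 10 counts over all libraries, chosen after seeing the data, its edgeR adjusted p was 0.677. Cd86, the costimulatory ligand of CD28 and CTLA-4, had 0.34 ± 0.16 and Havcr2, which encodes TIM-3, had 0.34 ± 0.19, and neither passed. Lag3 is also a gene of activated T cells, and T cell transcripts were scarce. Of 19 lymphocyte markers, Ighm, the immunoglobulin mu chain, and Trac, a T cell receptor chain, had enough counts to be tested, with log2 fold changes of 0.41 ± 0.19 and 0.18 ± 0.29 (edgeR adjusted p = 0.864 and 0.905). Within the sets Ighm had 0.73 in replicates 1 and 2 and 0.18 in replicates 3 to 5. The other 17 summed to 28 to 77 counts per knockout LPS library and 9 to 37 per knockout saline library. In CPM these sums were 1.63 to 2.64 and 0.383 to 1.78. Over each group, Cd3e had 13 counts after LPS and 4 after saline, Trbc2 42 and 31, Gzma 16 and 0, Klrb1c 12 and 1 and Nkg7 10 and 3. Cd79a, with 17 and 21, and Cd8b1, with 0 and 1, went the other way. The part of lymphocytes in the Lag3 difference was not tested.

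The LPS receptor complex, the Toll-like receptors and their adaptors showed 2 calls among 22 tested members in edgeR, and DESeq2 also called Cd14. Tlr2 (chr3:83836272-83841767), which recognises bacterial lipoproteins, measured 1.81, 2.26, 3.33, 1.47 and 2.32 CPM after LPS and at 0.507, 0.511, 0.769, 0.831 and 0.829 CPM after saline. All LPS libraries were above all saline libraries, and the log2 fold change was 1.73 ± 0.28 (edgeR adjusted p = 0.0181), 1.98 in replicates 1 and 2 and 1.55 in replicates 3 to 5. Unc93b1 (chr19:3935186-3949340), which carries TLR3, TLR7 and TLR9 to endosomes, stood at 19.9, 19.9, 22.1, 16.0 and 18.2 CPM after LPS and at 10.3, 13.9, 13.2, 12.7 and 13.9 CPM after saline. Its groups were close but did not overlap, and the log2 fold change was 0.59 ± 0.10 (SE; edgeR adjusted p = 0.0335). Cd14, the co-receptor that hands LPS to TLR4, was next, at 3.01, 3.94, 5.02, 3.56 and 4.95 CPM after LPS and 1.59, 2.39, 2.93, 2.37 and 2.82 CPM after saline, without overlap. Its log2 fold change of 0.76 ± 0.16 did not pass (edgeR adjusted p = 0.17). Tlr13, a receptor for bacterial ribosomal RNA, had 0.58 ± 0.22 and Myd88, the shared adaptor, 0.37 ± 0.15. Tlr3, which senses double-stranded RNA, had the opposite sign, at 8.51 to 14.9 CPM after LPS and 12.4 to 17.7 CPM after saline, its log2 fold change being -0.33 ± 0.11 (edgeR adjusted p = 0.864). Over the 22 genes 14 were above 0, 6 were higher and 1 lower at an unadjusted p under 0.05, and the median was 0.11.

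Receptors of the colony-stimulating factors keep myeloid cells alive and drive their maturation. Csf3r (chr4:126024550-126044440), the receptor of granulocyte colony-stimulating factor, stood at 10.4, 8.09, 5.89, 5.70 and 5.83 CPM after LPS and at 3.66, 5.07, 2.16, 2.05 and 3.43 CPM after saline. The level was higher in replicates 1 and 2 of both groups, and the groups did not overlap. The log2 fold change was 1.15 ± 0.19 (edgeR adjusted p = 0.0181), 1.08 and 1.18 within the sets. Csf1r, the receptor that microglia depend on, had 0.22 ± 0.09 and did not pass (edgeR adjusted p = 0.864). All 7 tested members of 9 were above 0, with a median of 0.37 that was 0.69 in replicates 1 and 2 and 0.09 in replicates 3 to 5. Csf3r is also a neutrophil gene. Of 15 neutrophil and monocyte markers, Mmp9 and Vcan were tested (0.34 ± 0.23 and 0.02 ± 0.11). The other 13 summed to 20 to 63 counts per knockout LPS library and 9 to 24 counts per knockout saline library (1.13 to 2.28 against 0.543 to 1.33 CPM), and Ly6g, which defines neutrophils, was at 0 in all 10. S100a8 had 38 counts over knockout LPS and 10 over knockout saline, and S100a9 had 39 and 15. The part of such cells in the Csf3r difference was not tested.

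Neurl3 (chr1:36264597-36274679), an E3 ubiquitin ligase of the neuralized family that was described as a gene induced by LPS in lung epithelium, stood at 1.63, 1.64, 1.04, 1.75 and 1.25 CPM after LPS and at 0.688, 0.639, 0.625, 0.448 and 0.774 CPM after saline. The groups did not overlap, and the log2 fold change was 1.19 ± 0.21 (edgeR adjusted p = 0.034), 1.29 in replicates 1 and 2 and 1.11 in replicates 3 to 5.

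**Figure D1:**
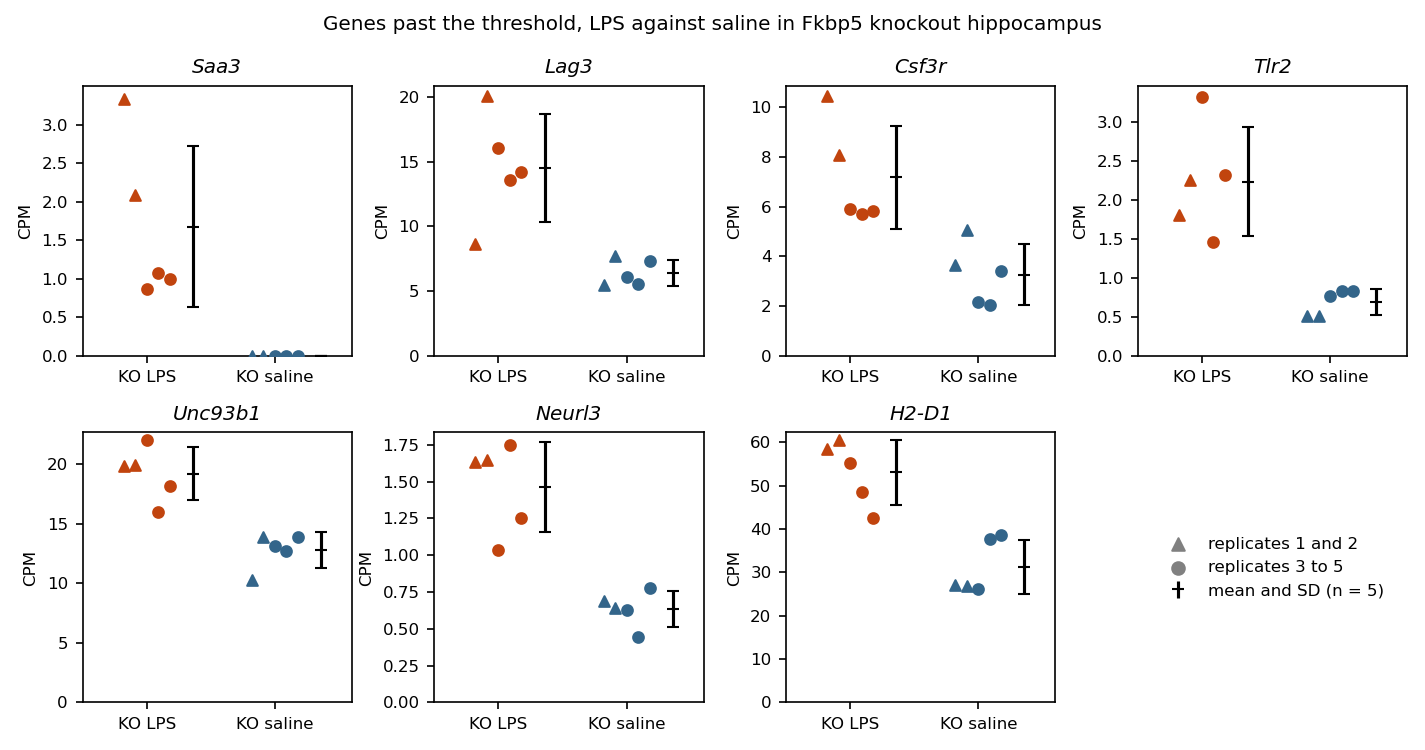
Levels of the 7 genes past the threshold in each knockout library (vertical axes: CPM from 0), with knockout LPS in orange and knockout saline in blue, triangles for replicates 1 and 2, circles for replicates 3 to 5, and the mean with SD (n = 5) at the side. In each panel the lowest LPS point lies above the highest saline point, and Saa3 is at 0 in all 5 saline libraries.

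MHC class I molecules present peptides from inside the cell to CD8 T cells and consist of a heavy chain and B2m. H2-D1 (chr17:35262730-35267499), a classical heavy chain, stood at 58.4, 60.5, 55.3, 48.5 and 42.6 CPM after LPS and at 27.2, 26.8, 26.2, 37.7 and 38.5 CPM after saline. Replicates 4 and 5 of the saline group were the highest of that group and replicate 5 was the lowest of the LPS group, without overlap. The log2 fold change was 0.78 ± 0.14 (edgeR adjusted p = 0.0453), 1.13 in replicates 1 and 2 and 0.52 in replicates 3 to 5. H2-K1, the other classical heavy chain of this strain, stood at 39.3, 37.5, 39.4, 35.0 and 30.1 CPM after LPS and 20.4, 21.1, 22.2, 28.6 and 29.4 CPM after saline, again without overlap (log2 fold change 0.59 ± 0.13, edgeR adjusted p = 0.17). B2m, the invariant light chain, stood at 78.4, 111, 112, 110 and 115 CPM after LPS and 54.5, 67.4, 69.2, 86.7 and 94.4 CPM after saline, with replicate 1 of the LPS group below the highest saline libraries (0.51 ± 0.11, adjusted p = 0.17). H2-Q6, a nonclassical heavy chain, had 1.05, 1.44, 1.53, 0.847 and 0.188 CPM after LPS and 0.253, 0.256, 0.0962, 0.0639 and 0.221 CPM after saline. Its log2 fold change was 2.46 ± 0.50 (edgeR adjusted p = 0.137), and H2-Q7 had 2.29 ± 0.52 (adjusted p = 0.219). Heavy chain genes are near-identical over long stretches, so reads may be split among H2-D1, H2-K1 and the H2-Q and H2-T genes, and values of single members are uncertain to that extent.

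All 10 members of the class I list were tested. 1 was called in edgeR and 5 in DESeq2 (H2-D1, H2-K1, B2m, H2-Q6 and H2-Q7), 9 were above 0, 9 were higher at an unadjusted p under 0.05 and 3 separated the groups within both library sets, as 187 of all genes did in that direction (1.14%). The median log2 fold change was 0.54, 0.75 in replicates 1 and 2 and 0.39 in replicates 3 to 5, and 0.68 without replicates 4 and 5 of knockout saline. Summed over the list, the level was 213 to 244 CPM in knockout LPS and 129 to 190 CPM in knockout saline. The genes that load peptide onto class I were closer to the bulk of genes. Of 13 tested members of the immunoproteasome and peptide loading list, 9 were above 0, 0 passed at an unadjusted p under 0.05 and the median was 0.10. Psmb8 and Psmb10, catalytic subunits of the immunoproteasome, had 0.39 ± 0.22 and 0.20 ± 0.10, and Tapbp, which encodes tapasin, had 0.16 ± 0.10.

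MHC class II genes present peptides taken up from outside to CD4 T cells. Of 10 tested members of 11, 8 were above 0 with a median of 0.39, 3 were higher at an unadjusted p under 0.05 and 0 were called in edgeR, while DESeq2 called Ctss. The median was 0.63 in replicates 1 and 2 and 0.16 in replicates 3 to 5, and 0.26 without replicate 2 of knockout saline. Ctss, the cathepsin S of microglia that trims the class II invariant chain, stood at 57.3, 116, 89.0, 108 and 111 CPM after LPS and 44.2, 59.6, 54.2, 71.0 and 72.3 CPM after saline. In 4 of 5 LPS libraries it exceeded every saline library (log2 fold change 0.69 ± 0.16, edgeR adjusted p = 0.318). The chains themselves, H2-Aa and H2-Ab1, had 0.38 ± 0.43 and 0.53 ± 0.47, with standard errors as large as the differences or nearly so.

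The complement system tags synapses and debris for removal by microglia. C1qa, a chain of the C1q recognition complex, stood at 67.7, 79.1, 82.8, 76.2 and 83.3 CPM after LPS and 40.6, 44.0, 59.3, 62.0 and 62.9 CPM after saline. Its groups did not overlap, and the log2 fold change of 0.57 ± 0.12 did not pass (edgeR adjusted p = 0.17). C3ar1, the receptor of the C3a fragment, had 2.19 to 3.45 CPM after LPS and 1.05 to 2.26 CPM after saline (0.76 ± 0.20, adjusted p = 0.454). Itgb2, the shared chain of complement receptors 3 and 4, had 5.98 to 9.34 CPM after LPS and 4.47 to 6.19 CPM after saline (0.52 ± 0.14, adjusted p = 0.448). C3, the central component, depended on the set, with log2 fold changes of 3.26 in replicates 1 and 2 and 0.45 in replicates 3 to 5. C5ar1, the C5a receptor, had -0.54 ± 0.25. Over 19 tested members of 22, 11 were above 0, 6 were higher and 1 lower at an unadjusted p under 0.05, and 0 were called in edgeR, while DESeq2 and the fit in which the set could differ by group called C1qa. The median of 0.16 was 0.42 in replicates 1 and 2 and 0.01 in replicates 3 to 5, and 0.03 without replicate 2 of knockout LPS.

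Fc receptors bind antibody, and TREM2 with its adaptor TYROBP senses lipids and drives phagocytosis and survival in microglia. All 13 tested members of this list of 14 were above 0, 6 of them at an unadjusted p under 0.05, with a median of 0.39 and 0 calls. Trem2 stood at 14.997, 19.4, 17.4, 17.6 and 17.9 CPM after LPS and 9.67, 12.3, 13.6, 14.4 and 14.4 CPM after saline, without overlap (0.46 ± 0.12, edgeR adjusted p = 0.464). Fcgr3, a low-affinity receptor of immunoglobulin G, had 0.51 ± 0.13 and Plcg2, the phospholipase downstream of TREM2, 0.42 ± 0.12. The median of the list was 0.17 without replicate 2 of knockout LPS, and 0.34 and 0.35 in the 2 sets.

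Microglial genes were described by a list of activation genes and one of homeostatic genes. Of 18 tested activation genes 15 were above 0, 7 were higher at an unadjusted p under 0.05 and 0 were called in edgeR, while DESeq2 called Cd52 and Lgals3bp. The median was 0.12. Cd52, a surface glycoprotein of leukocytes, stood at 2.54, 4.45, 2.89, 3.67 and 2.88 CPM after LPS and 0.869, 1.24, 2.26, 1.53 and 1.88 CPM after saline, without overlap (log2 fold change 1.17 ± 0.27, edgeR adjusted p = 0.254). Lyz2, which encodes a lysozyme of macrophages and neutrophils, measured 14.5, 12.7, 4.47, 11.2 and 5.77 CPM after LPS and 5.76, 6.30, 3.89, 4.03 and 4.87 CPM after saline, and 3 of 5 LPS libraries exceeded every saline library (0.93 ± 0.23, adjusted p = 0.409). Lgals3bp, a secreted galectin ligand, had 0.45 ± 0.10 (adjusted p = 0.219), and Itgax, the CD11c integrin of activated microglia and dendritic cells, 1.38 ± 0.39 (adjusted p = 0.721). Of the 16 homeostatic genes 12 were above 0 with a median of 0.14. Tmem119, a marker of resident microglia, had 0.30 ± 0.10, while Slc2a5, the fructose transporter of microglia, had -0.47 ± 0.17 (edgeR adjusted p = 0.864 for each). The homeostatic markers summed to 792 to 916 CPM in knockout LPS and 645 to 859 CPM in knockout saline, and 0 of the 16 were at 0. The part of microglial RNA in the results on Tlr2, Unc93b1, Csf3r, Cd14, C1q, Fc receptors and class I and II genes was not tested.

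**Figure D2:**
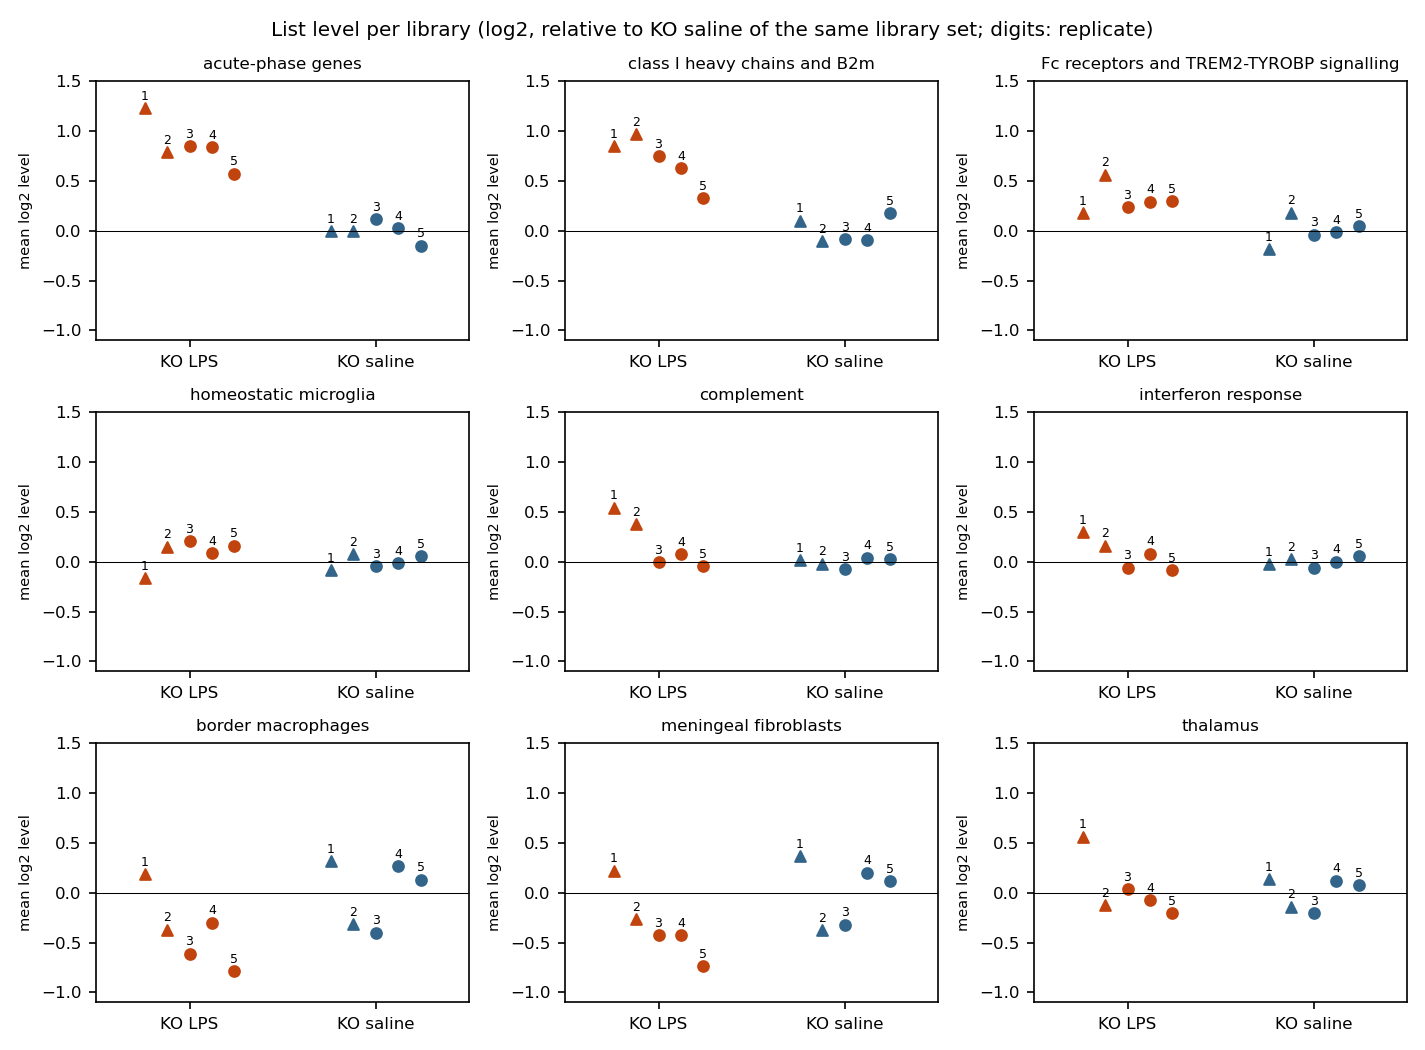
Mean log2 level of the tested members of 9 gene lists in each knockout library, relative to the mean of the knockout saline libraries of the same library set (vertical axes), with knockout LPS in orange, knockout saline in blue, triangles for replicates 1 and 2 and circles for replicates 3 to 5. Class I levels lie between 0.33 and 0.97 in LPS libraries and between -0.10 and 0.18 in saline libraries, while meningeal and border macrophage levels spread widely in both groups and replicate 1 of knockout LPS is highest for thalamus.

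Interferon-stimulated genes, NF-kB genes and cytokines had 0 calls. Of 25 tested interferon response genes 17 were above 0 with a median of 0.06, and 3 were higher at an unadjusted p under 0.05. These were Irf8, a factor of myeloid identity (0.42 ± 0.14), Parp14, an ADP-ribosyltransferase (0.54 ± 0.24), and Irf7, the master regulator of interferon-alpha genes (0.53 ± 0.24). Of the 11 tested interferon-inducible GTPases 8 were above 0, with a median of 0.15 that was -0.07 without replicate 1 of knockout LPS. Of 20 tested NF-kB pathway genes 17 were above 0 with a median of 0.15, and Tnfrsf1a, the main receptor of tumour necrosis factor, had 0.21 ± 0.09. Most cytokine genes were too low to test, with 8 of 25 tested and a median of 0.02. Over the 5 libraries of each group, Tnf had 6 counts after LPS and 2 after saline, Il1b 14 and 8, Il6 6 and 3, Ccl2 8 and 1 and Cxcl10 32 and 20. Cxcl1 (14 and 17), Ccl4 (8 and 9), Ccl7 (6 and 7), Il1rn (3 and 4) and Sele (0 and 2) went the other way. Ccl5, a chemokine for T cells and monocytes, had 7, 27, 8, 16 and 9 counts after LPS and 0, 4, 0, 0 and 1 counts after saline, without overlap. With the lower filter of 10 counts its log2 fold change was 3.59 ± 0.74 and did not pass (edgeR adjusted p = 0.128). Cxcl9, a chemokine induced by interferon gamma, had 10 counts over the LPS group and 0 over saline. The 17 untested members summed to 24 to 75 counts per knockout LPS library and 7 to 31 counts per knockout saline library (1.31 to 2.57 against 0.448 to 1.71 CPM).

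Astrocytes, oligodendrocytes and vessels showed small differences. Gfap, the intermediate filament of reactive astrocytes, stood at 571, 502, 580, 496 and 514 CPM after LPS and 389, 435, 473, 474 and 599 CPM after saline, with replicate 5 of the saline group the highest of all 10 (0.18 ± 0.09, edgeR adjusted p = 0.864). Of 10 tested pan-reactive astrocyte genes 8 were above 0 with a median of 0.13, which was 0.045 without replicate 1 of knockout LPS and 0.18 and 0.05 in the 2 library sets. The LPS-type reactive list, whose call was H2-D1, had 8 of 12 above 0 and a median of 0.09, which was 0.38 in replicates 1 and 2 and -0.11 in replicates 3 to 5. Of 15 homeostatic astrocyte genes 2 were above 0, with a median of -0.07. That median was -0.22 in replicates 1 and 2 and -0.05 in replicates 3 to 5. Slc1a2, the main glutamate transporter, had -0.28 ± 0.15. Myelin genes had 13 of 15 above 0 with a median of 0.05, and endothelial genes 11 of 16 with a median of 0.02.

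Markers of the brain's borders differed in sign from the immune genes. Border macrophage markers had 1 of 8 tested members above 0 and a median of -0.48, with Lyve1, a hyaluronan receptor, at -0.85 ± 0.44 and Mrc1, the mannose receptor CD206, at -0.51 ± 0.29. Meningeal fibroblast markers had 0 of 14 above 0 and a median of -0.31. Ogn, a small proteoglycan of the meninges, stood at 4.53, 5.55, 9.81, 7.45 and 5.71 CPM after LPS and 7.31, 5.37, 8.85, 12.1 and 12.9 CPM after saline. Aldh1a2, which makes retinoic acid in the meninges, stood at 5.29, 3.77, 7.47, 9.82 and 6.27 CPM after LPS and 8.54, 3.79, 8.61, 18.6 and 15.3 CPM after saline. In both genes replicates 4 and 5 of the saline group were the highest libraries, and 0 members of either list were called. The meningeal median was 0.00 in replicates 1 and 2, -0.55 in replicates 3 to 5 and -0.08 without replicates 4 and 5 of knockout saline, and the border macrophage median was -0.06 in replicates 1 and 2, -0.67 in replicates 3 to 5 and -0.19 without those libraries. The meningeal markers summed to 126 to 180 CPM in knockout LPS and 114 to 273 CPM in knockout saline, and the border macrophage list to 14.9 to 26.2 and 16.5 to 29.7 CPM. The part of meningeal tissue in other results was not tested. Leaving out replicates 4 and 5 of knockout saline left 2 calls, Saa3 and H2-D1.

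Neuronal lists had medians below 0 or close to it, and 0 calls. The interneuron and neuropeptide list, with a median of 0.07, is given under the other observations. Of 12 dentate granule cell markers 3 were above 0, with a median of -0.17. That median was -0.32 in replicates 1 and 2 and -0.06 in replicates 3 to 5. Cdh9, a cadherin of synapse formation, stood at 26.99, 32.4, 24.4, 19.6 and 24.1 CPM after LPS and 32.7, 39.0, 28.6, 25.3 and 27.6 CPM after saline. Within each library set every LPS library was below every saline library (-0.26 ± 0.08, edgeR adjusted p = 0.864), as in 139 of all genes tested (0.847%). Calb1, the calcium buffer calbindin, had -0.22 ± 0.09 and Prox1 -0.31 ± 0.16. Within the sets Calb1 had -0.46 in replicates 1 and 2 and -0.06 in replicates 3 to 5. Of 13 tested genes of neurogenesis and proliferation 1 was above 0, with a median of -0.08. The sets gave medians of -0.21 (replicates 1 and 2) and -0.02 (replicates 3 to 5). Top2a, the topoisomerase of dividing cells, had 0.273 to 0.725 CPM after LPS and 0.481 to 1.52 CPM after saline (-0.97 ± 0.36). GABA-A receptor subunits had 1 of 12 above 0 and a median of -0.18, with -0.36 in replicates 1 and 2 and -0.01 in replicates 3 to 5. The median was -0.07 without replicate 1 of knockout LPS. At 1061 CPM that library had the lowest summed GABA-A level of the 10, and it stood apart over all genes and in thalamus markers. The other 9 libraries had 1685 to 1976 CPM. Glutamate receptor and synapse genes had 8 of 20 above 0 with a median of -0.05, CA1 and CA3 markers 6 of 12 with -0.00, and immediate early genes 8 of 16 with -0.00. The immediate early median was -0.26 in replicates 1 and 2 and 0.30 in replicates 3 to 5, and -0.11 to 0.21 on leaving out single libraries.

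The chaperone system that FKBP5 belongs to and the genes under the glucocorticoid receptor had medians close to that of all genes tested. Of 19 tested corticosteroid receptors and glucocorticoid targets 10 were above 0, with a median of 0.02 that was -0.09 without replicate 1 of knockout LPS. Nr3c1, the glucocorticoid receptor, had -0.22 ± 0.15, Nr3c2, the mineralocorticoid receptor, -0.26 ± 0.13, and Klf9, a direct target of both, -0.23 ± 0.12. Lcn2, also on this list, was the member with an unadjusted p under 0.05. Of 20 HSP90 and co-chaperone genes 3 were above 0, where 52.5% of all genes tested were. Their median was -0.06, and -0.01 without replicate 1 of knockout LPS.

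**Figure D3:**
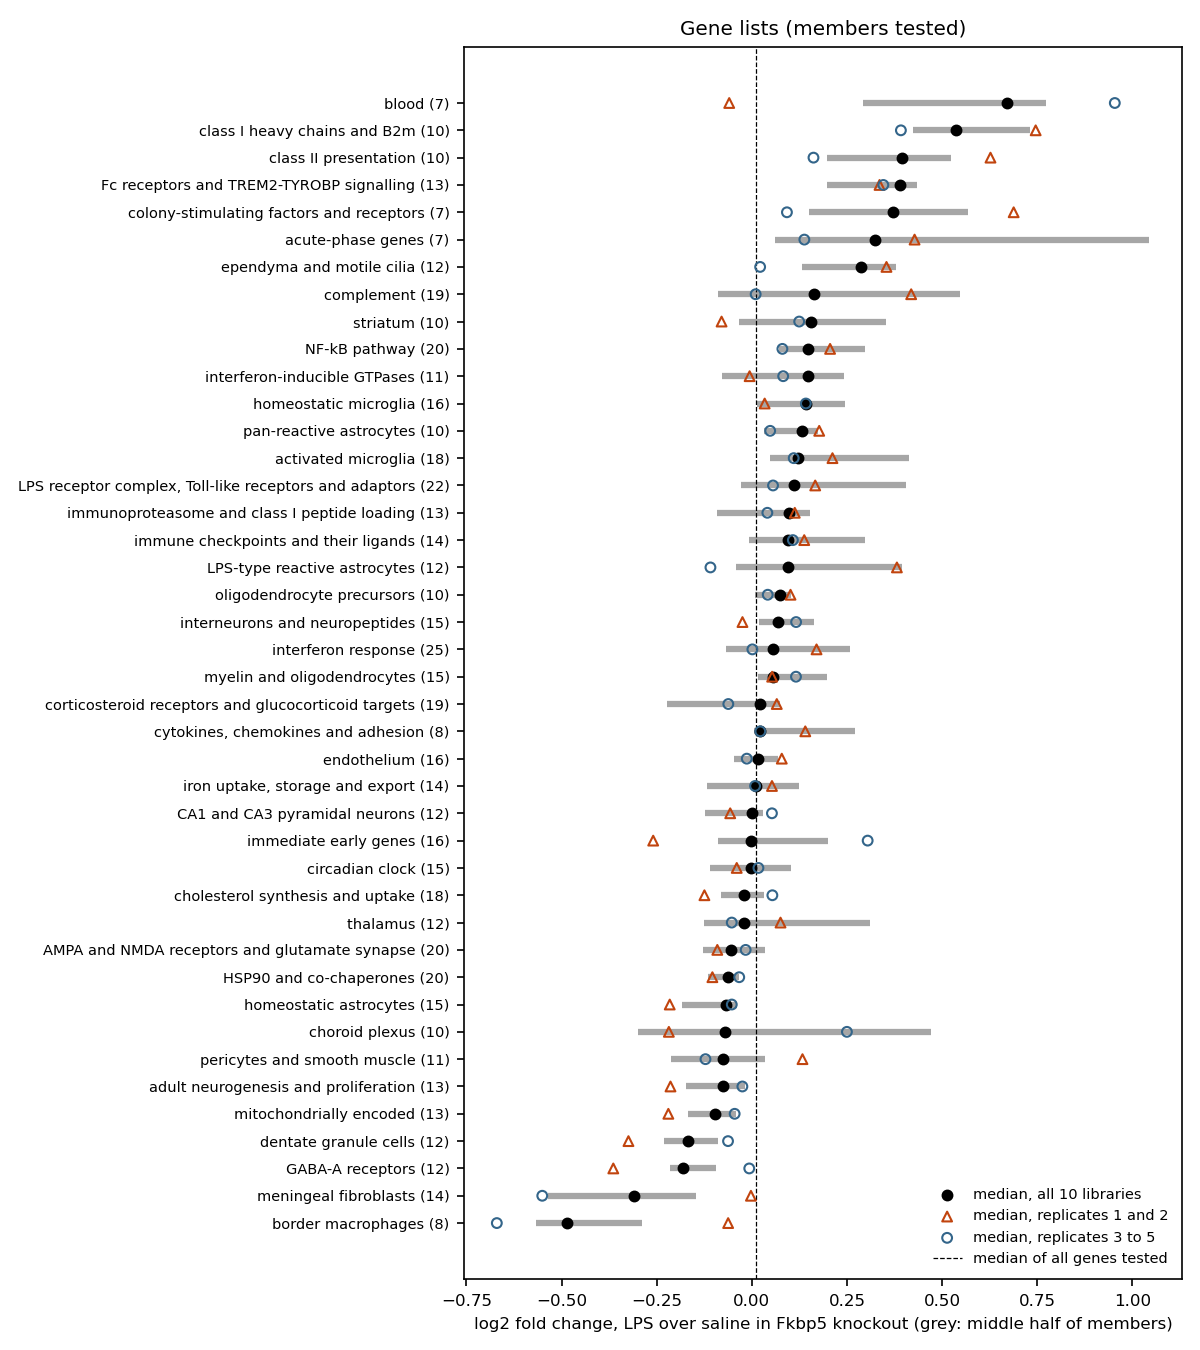
Log2 fold change of knockout LPS over knockout saline for gene lists with at least 3 tested members (number in brackets), with the median over all 10 libraries as a black dot, the range between the quartiles of members as a grey bar, and the medians of replicates 1 and 2 (triangles) and 3 to 5 (circles). Blood (0.67), class I (0.54), class II and the Fc receptor list (0.39 each) have the highest medians, and border macrophages (-0.48) and meningeal fibroblasts (-0.31) the lowest, with the sets far apart for blood.

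No gene was lower at the threshold, so the 10 lower genes with the smallest p are given as values. Chp2, a calcineurin B homologue that binds calcium, stood at 0.326, 0.480, 0.218, 0.395 and 0.251 CPM after LPS and 0.869, 1.06, 0.721, 1.47 and 0.663 CPM after saline. Every LPS library was below every saline library, and the log2 fold change of -1.44 ± 0.34 did not pass (edgeR adjusted p = 0.272). Tmem45a, a transmembrane protein, stood at 0.543, 0.617, 0.927, 0.508 and 0.502 CPM after LPS and 0.833, 1.11, 0.817, 1.598 and 2.10 CPM after saline, with replicate 3 of the LPS group within the saline values (-0.99 ± 0.28, adjusted p = 0.721). The next were Shmt1, the cytosolic serine hydroxymethyltransferase (-0.49 ± 0.14, adjusted p = 0.858), Cdh9, described above, and Usp53, of the ubiquitin protease family (-0.28 ± 0.08). Magef1, of the MAGE family and annotated as a transcribed processed pseudogene, had -0.37 ± 0.11. Hist1h2bg, a replication-dependent histone, had -1.34 ± 0.41, and C1ql3, a secreted synaptic organiser, -0.36 ± 0.11. Mplkip, a gene mutated in human trichothiodystrophy, had -0.31 ± 0.10 and Zfp943, a zinc finger gene, -0.24 ± 0.08. For these last 5 and for Cdh9 and Usp53 the edgeR adjusted p was 0.864. Among the 10, which were picked for a small p in this contrast, Chp2 and Zfp943 separated the groups. Of all genes tested, 17 did so in that direction (0.104%). Zfp943 had 12.0 to 14.6 CPM after LPS and 15.3 to 16.6 CPM after saline.

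Whether the LPS difference depended on genotype was tested as an interaction, the knockout log2 fold change minus the wild-type one. No gene passed at an adjusted p under 0.05 by edgeR (0%) or by DESeq2 or limma-voom, and 472 had an unadjusted p under 0.05 in edgeR (2.87%). In wild-type 3 genes were called, all higher after LPS (0.0183%), and Saa3 and Lag3 were among them, with Lyz2 as the third. Saa3 had 0 counts in both saline groups, so its interaction could not be estimated. Lag3 had log2 fold changes of 1.18 in knockout and 0.99 in wild-type (interaction 0.19 ± 0.24, edgeR unadjusted p = 0.432). H2-D1 had 0.78 in knockout and 0.64 in wild-type (interaction 0.14 ± 0.20, edgeR unadjusted p = 0.488). For Csf3r the knockout fold change was 1.15 and the wild-type one 0.53, with an interaction of 0.61 ± 0.26 (unadjusted p = 0.0285, adjusted p = 0.989). Its level averaged 7.19 ± 2.07 CPM in knockout LPS and 3.27 ± 1.24 CPM in knockout saline, and 6.45 ± 3.09 CPM in wild-type LPS and 4.34 ± 1.84 CPM in wild-type saline (SD, n = 5 each). Tlr2 averaged 2.24 ± 0.70 and 0.690 ± 0.167 CPM after LPS and saline in knockout, and 2.14 ± 0.36 and 1.19 ± 0.61 CPM in wild-type (interaction 0.81 ± 0.39, unadjusted p = 0.0501). Unc93b1 and Neurl3 had interactions of 0.26 ± 0.14 and 0.58 ± 0.29 (unadjusted p = 0.0876 and 0.0597). For these 4 genes the estimate was larger in knockout, and a difference between genotypes was not shown, since each adjusted p was 0.989. They were named because they passed in knockout, and none of them was called in wild-type. That choice by itself favours a larger knockout estimate and a small unadjusted interaction p.

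**Figure D4:**
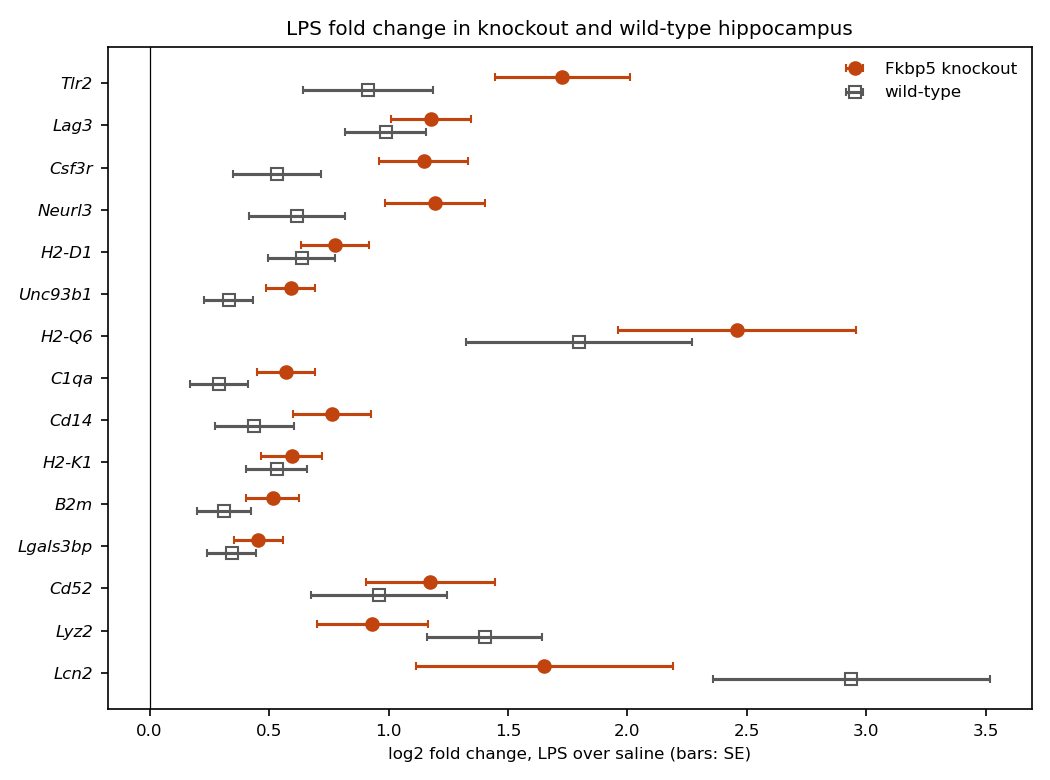
Log2 fold change of LPS over saline (horizontal axis, bars: SE) for 15 immune genes in Fkbp5 knockout (orange circles) and wild-type hippocampus (open grey squares). 13 of the 15 knockout values lie to the right of the wild-type ones, the exceptions being Lyz2 and Lcn2. Most of the genes were chosen for a small p in knockout, which by itself favours larger knockout values. 0 of the 15 interactions passed the adjusted threshold.

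Lyz2 was at 0.93 in knockout and 1.40 in wild-type (interaction -0.47 ± 0.33, edgeR unadjusted p = 0.173). Lcn2 was at 1.65 in knockout and 2.94 in wild-type (interaction -1.28 ± 0.84, edgeR unadjusted p = 0.142). The 5 genes with the smallest interaction p were Dmac1, AI467606, Nid1, Zic2 and Dusp16, each with an adjusted p of 0.989. Nid1, the basement membrane protein nidogen, averaged 6.91 ± 0.96 CPM in knockout LPS and 7.82 ± 1.82 CPM in knockout saline, and 8.14 ± 1.15 CPM in wild-type LPS and 5.31 ± 0.82 CPM in wild-type saline (interaction -0.80 ± 0.21, edgeR unadjusted p = 0.00105). Zic2, a zinc finger factor of the Zic family, had an interaction of -0.72 ± 0.19. The meningeal list had a median of -0.31 in knockout and 0.49 in wild-type, and the border macrophage list -0.48 and 0.18, and the part of meningeal tissue in the values of Nid1 and Zic2 was not tested.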

How the data were processed

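Total RNA of mouse hippocampus was sequenced. Per the labels' protocols, RNA was extracted with the RNeasy Plus mini kit and libraries were made with NEBNext Ultra reagents. Per the submitters' processing notes, the authors used Trimmomatic 0.38, FastQC, MultiQC, featureCounts 1.6.0 and mm10. The aligner, annotation release and strand setting are not given in the sources used here, and without strand a gene and an antisense partner cannot be told apart. None of the 7 called genes overlaps another gene in the annotation. The authors deposited raw read counts, 55536 genes in 20 libraries, and 0 sample columns were left unused. All 55536 IDs were matched to GENCODE M21 (GRCm38) for symbols and positions.

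Counts were tested in edgeR 4.0.16 (R 4.3.3; TMM, default expression filter by group, 16419 genes, robust quasi-likelihood F test) on all 20 libraries, with group and library set (replicates 1 and 2, or 3 to 5) as terms and Benjamini-Hochberg adjusted p under 0.05 as threshold. SE is the log2 fold change divided by the root of F. CPM used the TMM library sizes. Groups came from the sample labels. No pair of libraries agreed within sampling noise (lowest chi-square per gene within a group 3.87). A fold against 0 counts used 3 counts over the group. Same-numbered LPS and saline libraries of the knockout did not deviate together (r of -0.48, 0.29, -0.09, -0.01 and -0.07), so numbers were not taken as pairs. The test was checked on simulated counts.

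The genes named are Fkbp5, every called gene filled up to 10 per direction by p, at most 4 members a list in order of p, 14 genes earlier results had named, and the 5 smallest interaction p. Other list members with values were chosen after their values were seen. The comparison, the lists and this rule were chosen with earlier results of these data known. Lists are described by counts and medians and share some members. Alternatives were DESeq2 1.42.0, its size factors, limma-voom (limma 3.58.1), other filters, other set terms, the replicate block, subsets of libraries and leaving out each library.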

Additional observations from a re-analysis of the deposited data

Results flagged for a closer look

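In groups of 5 libraries, 8 of 127 sets of values had 1 library farther from the rest than Dixon's 95% limit. By chance about 1 in 20 would. The check took both library sets of a group together. B2m was at 78.4 CPM in replicate 1 of knockout LPS, against 110 to 115 CPM in the other 4. Csf2ra, a receptor of granulocyte-macrophage colony-stimulating factor, was at 31.4 CPM in that library, against 6.27 to 10.9 CPM. Otx2, a transcription factor of the choroid plexus, was at 13.1 CPM there, against 0.206 to 2.13 CPM. Kl and Folr1, also choroid plexus markers, were at 17.4 and 0.616 CPM there, against 19.7 to 43.3 and 0.514 to 2.45 CPM. Dmac1, a mitochondrial assembly factor, was at 19.6 CPM there, against 22.9 to 23.99 CPM. In replicate 1 of wild-type saline and LPS, Csf2ra was at 38.8 and 25.4 CPM and Otx2 at 0.685 and 15.1 CPM. Tmem45a was at 0.927 CPM in replicate 3 of knockout LPS, against 0.502 to 0.617 CPM. Fcer1g, the shared gamma chain of Fc receptors, was at 15.1 CPM in replicate 5 of knockout LPS, against 7.85 to 9.77 CPM. Itgax was at 0.774 CPM in replicate 5 of knockout saline, against 0.128 to 0.256 CPM. Npas4, a neuronal activity gene, was at 2.11 CPM in replicate 4 of knockout saline, against 5.81 to 6.77 CPM.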

How the results depend on the processing

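The log2 fold changes of the 7 called genes stayed above 0 in all 14 other settings and in all 20 fits that left out 1 library. Among the 20 fits Lag3 and Saa3 were called in 20, Csf3r in 16, Tlr2 in 14, Unc93b1 in 12, Neurl3 in 7 and H2-D1 in 4. The count of higher genes was 2 to 8 in those fits, with 0 lower genes and 0 interaction calls. It was 2 without replicate 1, 3 or 4 of knockout saline, 3 without replicate 2 or 3 of knockout LPS, and 4 without replicate 2 of knockout saline or replicate 3 or 4 of wild-type LPS. The count was 19 with DESeq2's Wald test (the 7, with B2m, Ctss, Cd52, C1qa, Ptpn6, Lgals3bp, H2-K1, H2-Q6, H2-Q7, Adgre1, Cd14 and Mpeg1), 3 with limma-voom, 8 where the set could differ by group, and 6 with at least 10 counts over the 20 libraries, a filter chosen after seeing the data. It was 1 without the set term (Lag3), 1 with only the 10 knockout libraries (Saa3), 1 in replicates 1 and 2 alone (Eno1b), and 1 higher (Lag3) and 1 lower (Lgr6) in replicates 3 to 5 alone. It was 5 without the 3 libraries with the highest thalamus level and 2 without replicates 4 and 5 of knockout saline. Without a filter on low counts 192 genes were higher, 25 lower and 85 had an interaction, and the cause was not tested. With the replicate block in place of the set 5 genes were higher (Tlr2, Csf3r, Lag3, Saa3 and Unc93b1), same-numbered libraries correlated above 0.1 in 1 of 5 pairs, and 0 of 5 correlated best with their own number. Fkbp5 changed sign in replicates 1 and 2 alone (0.034) and without replicates 4 and 5 of knockout saline (0.00087). Leaving out single libraries it ran from -0.12 to 0.016, the value above 0 coming without replicate 5 of knockout saline, and Nid1 changed sign without replicates 4 and 5 of knockout saline (0.051), all these positive values being within 1 SE of 0. Of the other values of single genes and lists, 30 list medians moved by more than the spread between libraries, 13 of them in fits of 1 library set alone. Genes under about 1 CPM, cytokines above all, are limited by depth.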

Other observations

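Iron and clock genes were also listed. Slc11a1, the NRAMP1 metal transporter of phagosomes, stood at 3.22, 3.15, 3.82, 2.88 and 2.70 CPM in knockout LPS and 1.67, 1.02, 1.97, 2.56 and 2.38 CPM in knockout saline, without overlap (log2 fold change 0.77 ± 0.19, edgeR adjusted p = 0.414). Of 14 tested iron genes 8 were above 0, with a median of 0.01 and 0 calls. Of 15 circadian clock genes 7 were above 0 with a median of -0.00, and of 18 tested cholesterol genes 7 with a median of -0.02. Interneuron and neuropeptide genes had 12 of 15 above 0 and a median of 0.07. That median was -0.02 in replicates 1 and 2 and 0.12 in replicates 3 to 5. Pvalb, the calcium buffer of fast-spiking interneurons, had 0.32 ± 0.13, with 0.52 and 0.16 within the sets. Slc32a1, the vesicular GABA transporter, had 0.27 ± 0.11, with 0.52 and 0.07 within the sets. Its level was 92.8 CPM in replicate 1 of knockout LPS, against 64.9 to 74.3 CPM in the others of that group. Ependymal and motile cilia genes had 10 of 12 above 0 and a median of 0.29, which was 0.35 in replicates 1 and 2, 0.02 in replicates 3 to 5 and 0.11 without replicate 2 of knockout saline, each member with an unadjusted p above 0.05. Blood genes had a median of 0.67, which was -0.06 in replicates 1 and 2 and 0.95 in replicates 3 to 5, with Hbb-bs at 0.82 ± 0.90.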
